A study of Mus musculus with 12 samples.

Results

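The hearts of sham-operated mice that had drunk vitamin B12 were compared with those of sham-operated mice on normal water, across all genes of the deposited expression table. The comparison uses 6 of the 12 libraries of the series, 3 labelled Sham+B12 and 3 labelled Sham, chosen by their labels and not by any measured value. All mice are given as wild type and all libraries as whole heart tissue. Sham+B12 mice had 50 mg/L of B12 in the drinking water from 7 days before surgery, at an intake of 4 mL per day, and Sham mice had normal water. In both groups the chest was opened under isoflurane and ventilation while the left anterior descending coronary artery was not occluded. The remaining libraries, I/R+B12 and I/R with 3 each, came from hearts with 45 min of ischemia and 24 h of reperfusion, with and without the same B12, and they enter below as part of the variance estimate and in the test of a difference between sham-operated and injured hearts. The labels do not say whether each library is 1 heart, and give no age, sex or strain. P-values therefore measure the spread between these libraries.

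Vitamin B12 (cobalamin) serves animal cells as the cofactor of only a few enzymes. Methionine synthase, encoded by Mtr, passes a methyl group from folate to homocysteine in the cytosol, and methylmalonyl-CoA mutase, encoded by Mmut, completes the breakdown of propionate from branched-chain amino acids and odd-chain fatty acids in mitochondria. The vitamin travels in plasma on transcobalamin (Tcn2), enters cells through the receptor CD320, leaves the lysosome through LMBRD1 and ABCD4 and is processed by MMACHC and MMADHC. The heart relies on fatty acids and other mitochondrial fuels.

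Levels are FPKM, the number of fragments per kilobase of transcript, scaled to library size. Differences are Sham+B12 minus Sham on the log2(FPKM + 1) scale, which understates the change of low genes, and were tested with limma over all 12 libraries. A gene was called when its p-value, adjusted by Benjamini-Hochberg over all 13001 tested genes, was under 0.05. Estimated depth was 24.25 to 28.25 M fragments in the 6 sham libraries, so that 1 FPKM of a 2000 nt transcript was worth 41.95 to 48.87 fragments. Cardiomyocyte markers summed to 77720 to 84540 FPKM in Sham+B12 and 74380 to 83200 FPKM in Sham, with all 15 tested. Of 10 listed markers of lung epithelium 5 were at 0 in all 6 libraries, namely Sftpc, Sftpa1, Sftpb, Scgb1a1 and Scgb3a2. The whole lung list summed to 175.3 to 233.5 FPKM, and 1 of its genes was high enough to test.

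The library labelled Sham 3 stood apart. Its r across genes with the other 5 sham libraries was 0.959 to 0.967, whereas Sham+B12 libraries correlated with each other at 0.98 to 0.984 and with Sham 1 at 0.983 to 0.985. Lcn2, a neutrophil and stress protein, was at 6.07, 7.55 and 4.25 FPKM in Sham+B12 1, 2 and 3, and at 5.01, 3.20 and 210.48 FPKM in Sham 1, 2 and 3. The neutrophil markers summed to 345.9 FPKM in Sham 3 and to 58.5 to 98.5 FPKM in the other 5 libraries, and the atrial markers to 3425 FPKM against 462.1 to 761.1 FPKM. Most of that atrial sum in Sham 3 was the 1 gene Nppa, at 3156.53 FPKM against 210.68 to 529.89 FPKM in the others. Erythroid markers summed to 3081 FPKM in Sham 3 and to 7408 to 14120 FPKM in the others. The median SD of a gene on the log2 scale was 0.136 in Sham+B12, 0.194 in Sham and 0.13 in Sham without Sham 3. Sham 3 correlated with I/R 1 and I/R 2 at 0.96 and 0.963, which lies within its range with the other sham libraries. Its highest r was 0.969, with I/R+B12 1. I/R 3 correlated with Sham 1 and Sham 2 at 0.974 and 0.982 but with I/R 1 and I/R 2 at 0.953 and 0.957. Whether Sham 3 and I/R 3 were exchanged was not tested, and if they were, the Sham means and the interaction values below would change. The labels were kept, and results that rest on this library are given with and without it. In bulk tissue, fewer cells of a type and less RNA per cell cannot be told apart.

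No gene was called between Sham+B12 and Sham hearts (0 of 13001, 0.0%), and the smallest Benjamini-Hochberg adjusted p from limma was 0.537. An unadjusted limma p under 0.05 was found for 220 genes (1.69%), of which 66 (0.508%) were higher and 154 (1.18%) lower in Sham+B12. With no differences at all, a share near the threshold of 0.05 would pass, and 1.69% is below it. The 220 genes are therefore no excess. In 200 genes (1.54%) every Sham+B12 library lay above every Sham library, and in 1168 (8.98%) every one lay below. The median gene was 0.07 lower in Sham+B12, 67.9% of genes had a negative difference and 32.1% a positive one. This imbalance depended on scaling: with median-ratio scaling, which sets the median difference near 0, 511 genes were higher and 526 lower without overlap, 116 of 211 genes at an unadjusted p under 0.05 were higher, and again 0 were called. Quantile normalization gave 478 higher and 518 lower without overlap. The SE of a gene's difference had a median of 0.20 and the 95% interval a median half-width of 0.44.

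**Figure D1:**
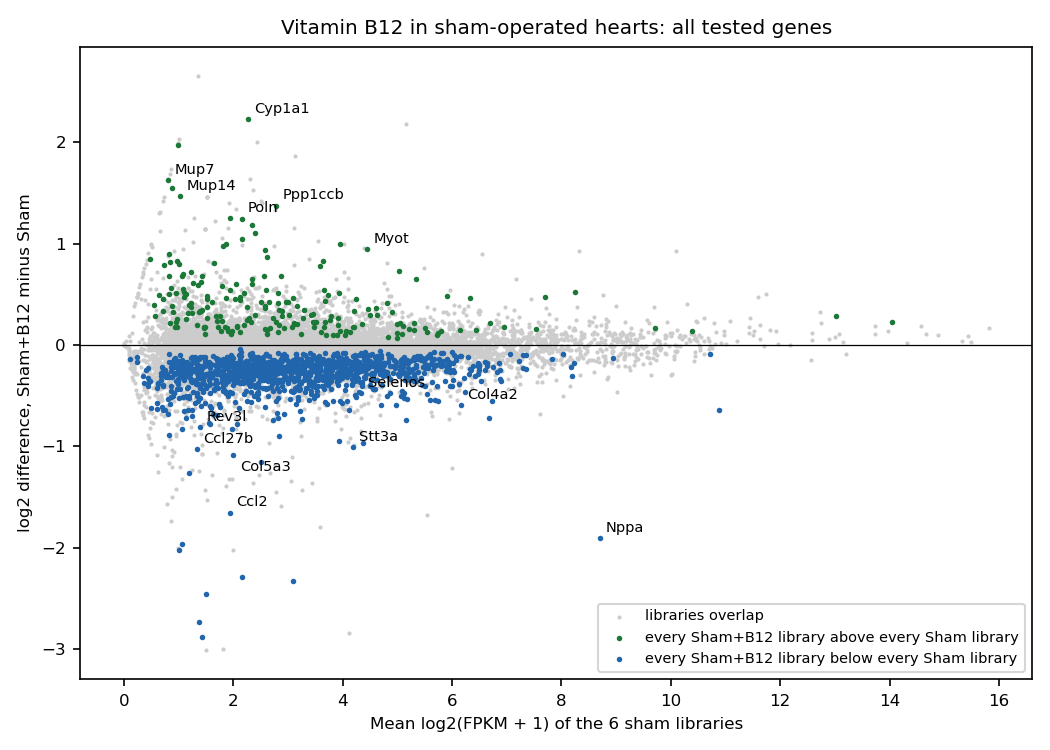
Difference between Sham+B12 and Sham hearts (y axis, log2, Sham+B12 minus Sham) against mean expression over the 6 sham libraries (x axis, log2(FPKM + 1)) for the 13001 tested genes. Green points are the 200 genes with every Sham+B12 library above every Sham library, blue points the 1168 with every one below, and grey points the rest; Cyp1a1 is the named gene with the largest positive difference, at 2.22.

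Cyp1a1 had the smallest p of all tested genes. It encodes a cytochrome P450 that oxidizes aromatic compounds and is the classical target of the aryl hydrocarbon receptor, which binds DNA together with ARNT at a xenobiotic response element. The gene (ENSMUSG00000032315) lies on the plus strand of chromosome 9 from 57687928 to 57703824 (mm10, GENCODE M21). Its start in RefSeq lies inside that span. The 250 bases before that start hold 1 copy of GCGTG, the core of the response element, beginning 54 bases before the start on the gene's strand. The 250 bases before the starts of Cyp1b1 and Tiparp, also known targets of the receptor, hold 1 copy each, as CACGC on the gene's strand. These 3 windows (RefSeq, GRCm38.p6, 5′ to 3′ on the gene's strand, chr9:57697363-57697612 plus, chr17:79715062-79715311 minus and chr3:65528197-65528446 plus) are shown because their genes carry the same letters and had different values, given next. Capitals mark GCGTG or its reverse complement.
Cyp1a1: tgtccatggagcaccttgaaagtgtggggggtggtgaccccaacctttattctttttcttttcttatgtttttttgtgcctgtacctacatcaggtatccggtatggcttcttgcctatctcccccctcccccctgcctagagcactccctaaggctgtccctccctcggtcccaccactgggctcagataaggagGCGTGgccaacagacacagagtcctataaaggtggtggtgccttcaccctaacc
Cyp1b1: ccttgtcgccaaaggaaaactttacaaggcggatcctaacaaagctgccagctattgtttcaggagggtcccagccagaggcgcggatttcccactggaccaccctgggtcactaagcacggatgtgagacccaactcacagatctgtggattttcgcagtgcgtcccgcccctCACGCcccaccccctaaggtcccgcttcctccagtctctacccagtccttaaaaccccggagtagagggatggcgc
Tiparp: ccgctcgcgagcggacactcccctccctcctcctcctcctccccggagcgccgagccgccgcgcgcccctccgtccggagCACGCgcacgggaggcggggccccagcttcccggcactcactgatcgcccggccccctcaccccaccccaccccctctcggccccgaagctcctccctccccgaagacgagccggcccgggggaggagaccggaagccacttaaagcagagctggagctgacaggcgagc
The letters GCGTG or CACGC occur in 28.2% of all 32851 promoter windows of this length. Binding was not measured, and a match describes the sequence alone.

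Cyp1a1 was at 8.0, 14.65 and 6.94 FPKM in Sham+B12 1, 2 and 3, and at 1.96, 1.5 and 0.48 FPKM in Sham 1, 2 and 3. Every Sham+B12 library lay above every Sham library. The means were 9.86 ± 4.18 FPKM in Sham+B12 and 1.31 ± 0.757 FPKM in Sham (SD, n = 3 each), a ratio of 7.51. The log2 difference was 2.22 (SE 0.37, 95% interval 1.42 to 3.03), with an unadjusted p of 7.48e-05 and a Benjamini-Hochberg adjusted p of 0.537 from limma. Without Sham 3 it was 1.93. Over the 26 alternative settings it lay between 1.83 and 2.93, with an adjusted p of 0.0917 to 1.0.

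The other genes of the aryl hydrocarbon receptor list had small differences of either sign. Of 14 listed genes 10 were tested, 2 had a positive difference and 8 a negative one, and the median was -0.12. Without Sham 3 it was 5 of each sign, with a median of -0.02. Cyp1a1 was the 1 member with an unadjusted p under 0.05 (background 0.508% for higher genes) and the 1 member whose libraries did not overlap (1.54% of all genes for higher). The other positive member was Ugt1a7c, a glucuronosyltransferase with close paralogs, at 1.35, 2.22 and 0.98 FPKM in Sham+B12 and at 1.01, 1.07 and 1.11 FPKM in Sham. Cyp1b1, a related P450, was at 2.99, 2.71 and 2.72 FPKM in Sham+B12 and at 1.86, 3.11 and 6.57 FPKM in Sham, and its difference of -0.23 was 0.15 without Sham 3. Tiparp, a feedback regulator of the receptor, was at 1.94, 2.46 and 2.30 FPKM in Sham+B12 and at 2.20, 2.57 and 2.52 FPKM in Sham. The groups overlapped for both, as they did for Nqo1, a quinone reductase (29.9 ± 2.46 FPKM in Sham+B12 and 36.0 ± 8.33 FPKM in Sham; SD, n = 3 each). The receptor itself, Ahr, averaged 1.78 ± 0.428 FPKM in Sham+B12 and 2.04 ± 0.144 FPKM in Sham (SD, n = 3 each). Ahrr, the receptor's repressor, was below the level for testing, at 0.95, 0.52 and 1.14 FPKM in Sham+B12 and 0.73, 0.55 and 0.27 FPKM in Sham.

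Transcripts of hepatocytes were present at low level in the Sham+B12 libraries, at the highest level in Sham+B12 1. Alb, the plasma protein albumin, was at 7.38, 0.23 and 0.71 FPKM in Sham+B12 and at 0.00, 0.11 and 0.02 FPKM in Sham. Apoc3, an apolipoprotein, was at 1.65, 0.77 and 0.32 FPKM in Sham+B12 and is listed at 0 in all 3 Sham libraries. The sum of the 10 hepatocyte markers was 33.62, 11.33 and 15.06 FPKM in Sham+B12 and 7.93, 6.55 and 11.44 FPKM in Sham. Sham+B12 2, with 0.23 FPKM of Alb, had 14.65 FPKM of Cyp1a1, and the library I/R 3, with 12.6 FPKM of Alb, had 1.24 FPKM of Cyp1a1. The part of hepatocyte transcripts in the Cyp1a1 difference was not tested. The major urinary protein genes Mup7 and Mup14, which belong to a family of near-identical copies so that their levels are uncertain, had their highest sham values in Sham+B12 1. Mup7 was at 7.68, 1.13 and 0.59 FPKM in Sham+B12 and is listed at 0 in all 3 Sham libraries. Mup14 was at 7.71, 1.71 and 0.69 FPKM in Sham+B12 and at 0.18, 0.42 and 0.12 FPKM in Sham. Ahsg, a plasma protein made by liver, was at 8.27, 7.47 and 8.03 FPKM in Sham+B12 and at 5.02, 3.26 and 9.07 FPKM in Sham, so that Sham 3 alone made the groups overlap (0.49, and 0.82 without Sham 3).

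Myot and Pfkfb2 were among the 12 higher genes with the smallest p. Myot, a Z-disc protein of striated muscle, was at 31.76, 24.10 and 32.88 FPKM in Sham+B12 and at 18.66, 9.10 and 18.70 FPKM in Sham. All Sham+B12 values were above all Sham values, with a log2 difference of 0.94 (SE 0.25, limma adjusted p 0.999). Of 25 tested sarcomere proteins Myot was the 1 higher without overlap, where 1.54% of all genes were, and their median was 0.08. With median-ratio scaling 4 of the 25 were higher without overlap, against 3.93% of all genes. Pfkfb2, the heart isoform of the enzyme that makes fructose 2,6-bisphosphate and so speeds glycolysis, was at 3.83, 3.91 and 4.60 FPKM in Sham+B12 and at 2.5, 2.58 and 3.21 FPKM in Sham (0.44, SE 0.15). The related Pfkfb1 also did not overlap, at 8.89, 7.96 and 10.37 FPKM in Sham+B12 and 6.64, 5.10 and 7.29 FPKM in Sham. These were the 2 of 32 tested genes of glucose use that lay higher without overlap, and Pdp1, a phosphatase that activates pyruvate dehydrogenase, was the 1 that lay lower, where 1.54% and 8.98% of all genes did. With median-ratio scaling 4 of the 32 lay higher, against 3.93% of all genes. Of the same 32 genes 19 had a positive difference (32.1% of all genes; median 0.09).

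In further genes every Sham+B12 library lay above every Sham library. Dtnb, a dystrobrevin of the dystrophin complex, was at 1.81, 3.04 and 2.17 FPKM in Sham+B12 and at 1.11, 1.23 and 1.11 FPKM in Sham (0.62, SE 0.16). Tac1, which encodes the neuropeptide substance P, was at 1.46, 3.24 and 1.61 FPKM in Sham+B12 and at 0.53, 1.28 and 0.74 FPKM in Sham (0.72, SE 0.23). Cd209f, a C-type lectin with close paralogs, had 1.63 ± 0.360 FPKM in Sham+B12 and 0.513 ± 0.405 FPKM in Sham (SD, n = 3 each). The Ig heavy chain constant gene Ighg2c had 4.19 ± 0.866 FPKM in Sham+B12 and 1.72 ± 0.988 FPKM in Sham (SD, n = 3 each). Poln, a DNA polymerase (1.24), Spc24, a kinetochore protein (0.68), Pkib, an inhibitor of protein kinase A (0.89), and Amy1, an amylase with close paralogs (0.47), were also among the 12 higher genes with the smallest p, and Ppp1ccb, annotated as a transcribed processed pseudogene, had a larger difference with a wide spread (1.37, SE 0.70). None of these was called.

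Among genes with lower values, several had groups that were tight and apart. Rev3l, the catalytic subunit of DNA polymerase zeta, which copies past damaged bases, was at 0.83, 1.00 and 1.16 FPKM in Sham+B12 and at 2.34, 2.80 and 2.37 FPKM in Sham. Its log2 difference was -0.81 (SE 0.19, limma adjusted p 0.999), and -0.84 without Sham 3. Tdg, a DNA glycosylase that removes mismatched thymine and oxidized methylcytosine, was at 4.35, 5.18 and 5.62 FPKM in Sham+B12 and at 7.26, 7.23 and 6.72 FPKM in Sham (-0.42, SE 0.14). In both, the highest Sham+B12 value was below the lowest Sham value, and Sham 3 lay with Sham 1 and 2.

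The other lower genes with the smallest p had varied roles. Selenos, a selenoprotein of the endoplasmic reticulum that takes part in removing misfolded proteins, was at 16.31, 16.48 and 16.04 FPKM in Sham+B12 and at 23.26, 22.91 and 22.68 FPKM in Sham. The spread within each group was under 0.3 FPKM (16.3 ± 0.222 FPKM in Sham+B12 and 22.9 ± 0.292 FPKM in Sham; SD, n = 3 each), and the log2 difference was -0.47 (SE 0.15, limma adjusted p 0.999). Stt3a, a catalytic subunit of the oligosaccharyltransferase that attaches N-glycans, was at 12.77, 9.33 and 14.05 FPKM in Sham+B12 and at 21.69, 24.82 and 28.53 FPKM in Sham (-1.0, SE 0.32). Dolpp1, which recycles the lipid carrier of N-glycan synthesis, had 3.15 ± 0.0802 FPKM in Sham+B12 and 5.19 ± 1.07 FPKM in Sham (SD, n = 3 each; -0.56). The remaining lower genes of this group were Usp34, a deubiquitinase (-0.47), Mpp6, a scaffold protein (-0.39), Gjc1, the gap junction protein connexin 45 (-0.40), Eif1ax, a translation initiation factor (-0.55), Pdcd2 (-0.49), the chemokine gene Ccl27b, which has near-identical copies (-1.02), and Col4a2.

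**Figure D2:**
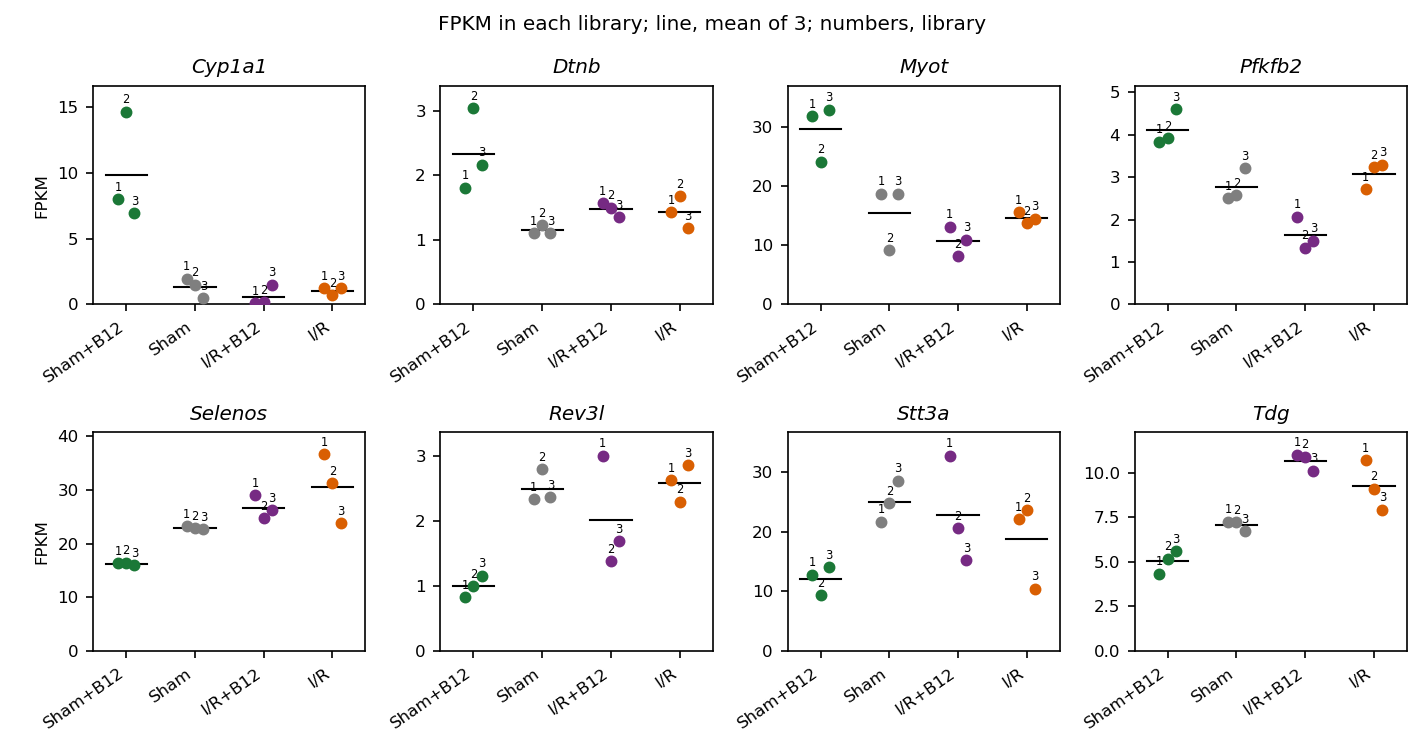
FPKM (y axis) of 8 genes in each of the 12 libraries, by group on the x axis; points are libraries, numbered by replicate, and lines the mean of 3. In Sham+B12 hearts Cyp1a1 (6.94 to 14.65 FPKM), Dtnb, Myot and Pfkfb2 lie above all Sham libraries, and Selenos (16.04 to 16.48 FPKM), Rev3l, Stt3a and Tdg lie below them.

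The list of the unfolded protein response, the program that matches folding capacity to secretory load, showed small differences of the same sign as Selenos. Of its 20 genes 16 had a negative difference, as 67.9% of all genes did (median -0.14, against -0.07 for all genes). Among the 20, 0 had an unadjusted p under 0.05 and 7 lay lower without overlap, where 8.98% of all genes did. The 7 included Atf4, the translation-controlled transcription factor of this response, at 32.77, 30.83 and 29.25 FPKM in Sham+B12 and 32.78, 36.94 and 50.83 FPKM in Sham. They also included Xbp1, at 30.61, 32.25 and 33.62 FPKM in Sham+B12 and 33.94, 40.52 and 50.77 FPKM in Sham. In both, the groups nearly met at Sham 1. With median-ratio scaling 0 of the 20 lay lower without overlap (4.05% of all genes) and 14 had a negative difference (51.3% of all genes).

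Collagen and matrix genes had the lowest median of any list that kept its sign without Sham 3. Of 36 tested genes 32 had a negative difference, the median was -0.51 against -0.07 for all genes, and 6 had an unadjusted p under 0.05, all lower, where 1.18% of all genes did. In 9 the Sham+B12 libraries all lay below the Sham libraries (8.98% of all genes did). None was called by limma. The paired genes of type IV collagen, the network protein of basement membranes, lie head to head on chromosome 8. Col4a2 was at 51.81, 53.55 and 67.50 FPKM in Sham+B12 and at 68.23, 84.81 and 113.79 FPKM in Sham (-0.60, SE 0.20). Col4a1 was at 75.56, 84.51 and 100.72 FPKM in Sham+B12 and at 107.99, 125.62 and 152.70 FPKM in Sham (-0.56, SE 0.19). For both the groups came close without overlapping, and Sham 3 was the highest library.

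Other members differed by similar amounts. Mmp2, a gelatinase, was at 29.10, 26.12 and 32.39 FPKM in Sham+B12 and at 35.81, 50.48 and 42.10 FPKM in Sham (-0.53, SE 0.20). Col6a1, of the microfibrillar type VI collagen, was at 23.66, 26.49 and 31.53 FPKM in Sham+B12 and at 31.99, 47.92 and 38.01 FPKM in Sham (-0.50, SE 0.21). Postn, a matricellular protein of activated fibroblasts, was at 8.84, 14.03 and 14.22 FPKM in Sham+B12 and at 15.36, 20.20 and 20.43 FPKM in Sham (-0.57, SE 0.25). None of these overlapped, nor did Col15a1 (-0.59) and Col6a2 (-0.48). Mmp14, which activates Mmp2, overlapped, at 6.04 ± 1.20 FPKM in Sham+B12 and 13.3 ± 7.20 FPKM in Sham (SD, n = 3 each), and so did the fibrillar collagen gene Col3a1, at 49.1 ± 16 FPKM in Sham+B12 and 85.5 ± 44.6 FPKM in Sham (SD, n = 3 each). Col5a3, which was not on the list, was at 1.57, 1.67 and 2.07 FPKM in Sham+B12 and at 2.18, 6.02 and 7.93 FPKM in Sham (-1.08, SE 0.54).

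The median of the matrix list stayed negative with each Sham library left out, though its size varied. The median was -0.64 without Sham 1, -0.36 without Sham 2 and -0.33 without Sham 3, and 32, 30 and 30 genes were negative, where 65.1%, 63.8% and 67.4% of all genes were. With median-ratio scaling it was -0.44, with 31 genes negative (51.3% of all genes) and 4 lower without overlap (4.05% of all genes), and with library weights -0.245. Median-ratio scaling without Sham 3 gave -0.252, and 1 of the 36 genes had an unadjusted limma p under 0.05. Taken as a list the libraries overlapped. The mean of log2(FPKM + 1) over its genes, less each gene's mean of 12 libraries, was -0.73, -0.47 and -0.25 in Sham+B12 1, 2 and 3. In Sham 1, 2 and 3 it was -0.42, 0.03 and 0.27. Sham+B12 1 was thus the lowest library, and the median of the list without it is not reported here. Of the 14 fibroblast markers 11 had a negative difference (67.9% of all genes; median -0.29), 1 had an unadjusted p under 0.05 and 1 lay lower without overlap (8.98% of all genes). Pdgfra, the receptor that marks cardiac fibroblasts, was at 7.94, 8.02 and 8.31 FPKM in Sham+B12 and at 9.72, 11.80 and 13.88 FPKM in Sham (-0.48, SE 0.19). The list shares Dcn, Lum and collagen genes with the matrix list, and its summed level was 1418 to 1559 FPKM in Sham+B12 and 1578 to 1928 FPKM in Sham. Its part in the matrix difference was not tested.

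**Figure D3:**
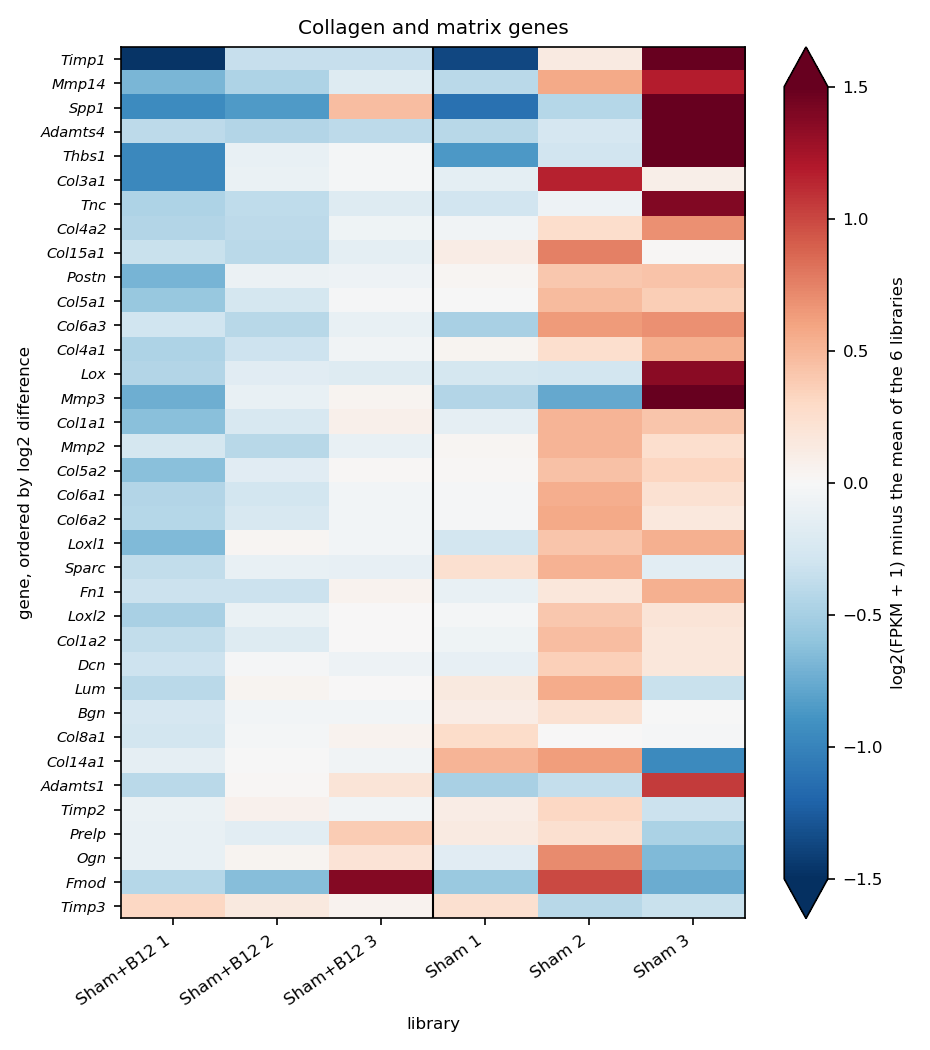
Expression of the 36 tested collagen and matrix genes (rows, ordered by log2 difference) in the 3 Sham+B12 and 3 Sham libraries (columns); colour is log2(FPKM + 1) minus the mean of the 6 libraries, red above and blue below, and the black line parts the groups. Most rows are blue in Sham+B12 1 and red in Sham 2 or Sham 3, while Sham 1 and Sham+B12 3 lie near 0 in many rows.

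Genes that take up, process and use B12 showed no difference beyond the spread of the libraries. Of 20 listed genes 16 were tested, and 8 had a positive (32.1% of all genes) and 8 a negative difference. The median was 0.02 against -0.07 for all genes, 0 had an unadjusted p under 0.05 and 0 were called. After median-ratio scaling 10 of the 16 were positive (48.7% of all genes), with 3 higher (3.93% of all genes) and 0 lower without overlap, and again 0 had an unadjusted p under 0.05. Mtr was at 20.19, 26.17 and 20.74 FPKM in Sham+B12 and at 24.44, 17.96 and 14.30 FPKM in Sham. The groups overlapped, and the 95% interval of the log2 difference (0.25) ran from -0.49 to 1.00. Mmut was at 21.56, 20.94 and 24.93 FPKM in Sham+B12 and at 19.65, 22.61 and 21.06 FPKM in Sham, with a difference of 0.08 (95% interval -0.31 to 0.48). The reductase that reactivates methionine synthase, Mtrr, had 3.40 ± 0.221 FPKM in Sham+B12 and 3.96 ± 0.343 FPKM in Sham (SD, n = 3 each).

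The transport genes gave the same picture. Tcn2 was at 42.43, 37.86 and 37.71 FPKM in Sham+B12 and at 40.23, 33.11 and 35.21 FPKM in Sham (0.12, 95% interval -0.30 to 0.54). Cd320 was at 18.04, 20.41 and 20.59 FPKM in Sham+B12 and at 17.40, 18.64 and 18.11 FPKM in Sham (0.12, -0.22 to 0.46). Lmbrd1 had 15.7 ± 3.61 FPKM in Sham+B12 and 14.6 ± 2.21 FPKM in Sham (SD, n = 3 each). Mmachc, which strips the upper ligand from cobalamin, was at 27.11, 28.09 and 27.71 FPKM in Sham+B12 and at 28.44, 21.77 and 20.76 FPKM in Sham, so Sham 1 lay above all Sham+B12 libraries. Mmaa, the chaperone that loads the cofactor onto the mutase, had the smallest p of the list (0.26, SE 0.17, unadjusted p 0.157). Without rescaling, Thap11, a transcription factor that controls Mmachc, was the 1 member without overlap (8.98% of all genes for lower). Its levels were 15.86, 13.38 and 15.76 FPKM in Sham+B12 and 16.47, 16.73 and 16.59 FPKM in Sham (-0.14, SE 0.18). The gut and kidney genes Cblif, Cubn, Amn and Lrp2 were too low to test, with at most 0.39 FPKM in these 6 libraries.

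Among folate enzymes, which feed methionine synthase, none was called. Of 23 tested genes 8 had a positive and 15 a negative difference (median -0.06), and Aldh1l1 was the 1 with an unadjusted p under 0.05 (1.69% of all genes). Aldh1l1, which oxidizes formyl-tetrahydrofolate, was at 4.14, 3.27 and 4.04 FPKM in Sham+B12 and at 3.46, 1.88 and 1.90 FPKM in Sham (0.52, SE 0.21, unadjusted p 0.032), with Sham 1 inside the Sham+B12 range. Tyms, thymidylate synthase, was at 1.30, 1.56 and 1.46 FPKM in Sham+B12 and at 2.14, 4.25 and 2.59 FPKM in Sham (-0.68, SE 0.35), and Mthfd2, the mitochondrial dehydrogenase of dividing cells, at 0.77, 0.75 and 1.05 FPKM in Sham+B12 and 1.07, 1.25 and 2.85 FPKM in Sham (-0.50, SE 0.36). These were the 2 of 23 members that did not overlap, both lower, a share near the 8.98% of all genes. Shmt1 (-0.02) and the folate carrier Slc46a1 (-0.12) overlapped. Of the 21 tested genes of the methionine cycle and methyl transfer 0 had an unadjusted p under 0.05 (median -0.09, against -0.07 for all genes). Without overlap, 1 lay higher, Sms, spermine synthase (1.54% of all genes), and 1 lower, Srm, spermidine synthase (8.98% of all genes).

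Breakdown of branched-chain amino acids and propionate, which ends at the mutase, had 16 of 22 genes with a positive difference, where 32.1% of all genes had one, and a median of 0.05. Bckdhb, a subunit of the branched-chain ketoacid dehydrogenase, was at 41.36, 38.47 and 42.10 FPKM in Sham+B12 and at 35.91, 37.82 and 35.68 FPKM in Sham (0.15, SE 0.13). Mccc2, of leucine breakdown, was at 37.77, 31.64 and 34.98 FPKM in Sham+B12 and at 30.95, 28.14 and 29.87 FPKM in Sham (0.22, SE 0.15). Ppm1k, the phosphatase that activates the same dehydrogenase, lay the other way, at 11.94, 9.27 and 11.34 FPKM in Sham+B12 and at 17.00, 12.20 and 20.60 FPKM in Sham (-0.55, SE 0.41). These were the 3 members without overlap, 2 higher (1.54% of all genes) and 1 lower (8.98%), and none had an unadjusted p under 0.05.

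**Figure D4:**
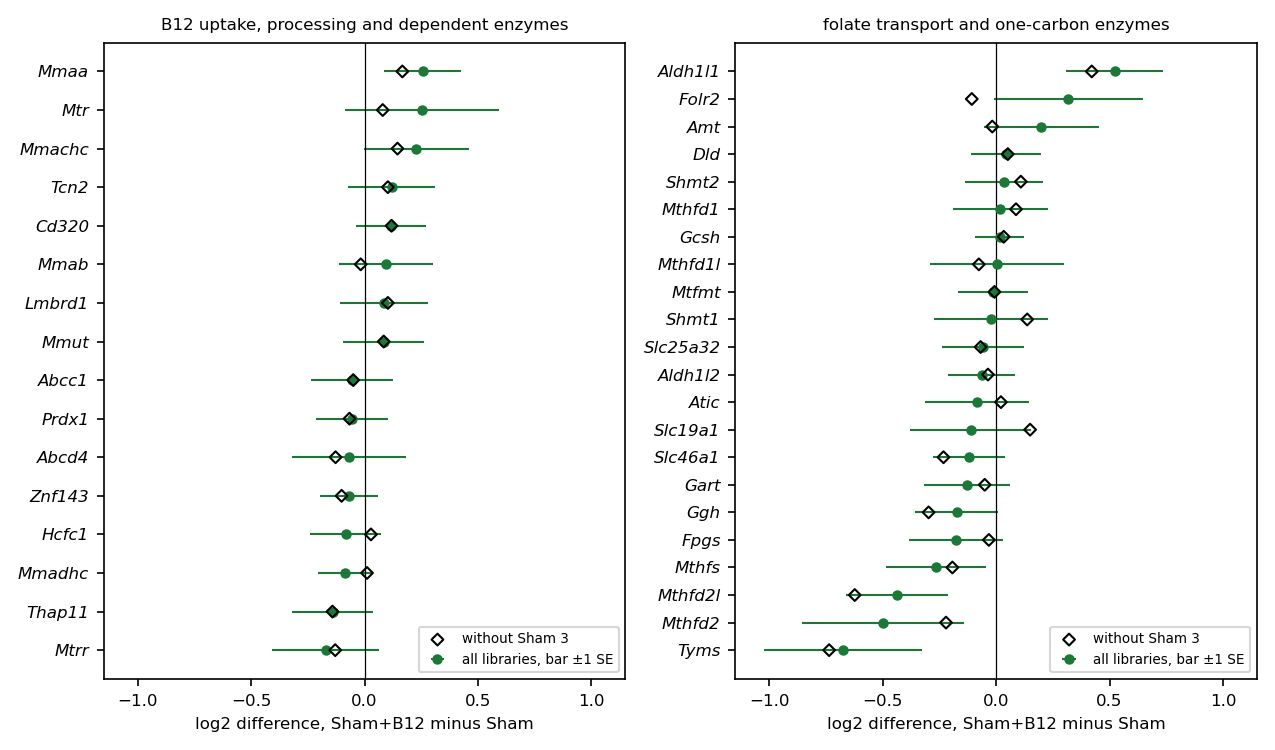
Log2 difference between Sham+B12 and Sham hearts (x axis) for tested genes of B12 use (left, 16 genes) and of folate use (right, 22 genes drawn); green points are from all libraries with bars of 1 SE, and open diamonds from the fit without Sham 3. Differences of the B12 genes lie between -0.17 and 0.26 and scatter around 0.

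With all libraries, energy sensors and regulators of mitochondrial genes did not differ beyond the spread either. Of 21 tested AMPK and sirtuin genes 13 had a negative difference (median -0.08) and 0 had an unadjusted p under 0.05. Sirt3, the mitochondrial deacetylase, was at 32.86, 36.18 and 32.61 FPKM in Sham+B12 and at 35.17, 32.56 and 26.16 FPKM in Sham (0.12, 95% interval -0.24 to 0.48). The AMPK catalytic subunits Prkaa1 (0.04) and Prkaa2 (0.10) overlapped too. Ppargc1a, the coactivator of mitochondrial biogenesis, had 11.9 ± 2.07 FPKM in Sham+B12 and 9.40 ± 1.82 FPKM in Sham (SD, n = 3 each; 0.32, SE 0.18). Without Sham 3 its difference was 0.425 (SE 0.192) and it lay higher without overlap, as 3.54% of all genes did. Nuclear subunits of respiratory complex I had 34 of 38 positive differences with a small median of 0.08, and 19 of 38 without Sham 3, where 32.6% of all genes were positive. Fatty acid genes had a median of -0.01, with 16 of 35 positive (23 of 35 with median-ratio scaling). Without Sham 3 it was 0.12, with 31 of 35 positive (32.6% of all genes). With median-ratio scaling and without Sham 3, 35 of 35 were positive (50.7% of all genes). In that fit 10 lay higher without overlap (8.35% of all genes) and 0 were called.

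Several lists took their sign from Sham 3. The median of the acute phase list was -0.65 with all libraries and 0.23 without Sham 3, that of the neutrophil markers -0.26 and 0.08, that of the stretch-responsive and natriuretic genes -0.28 and 0.04, that of the glucocorticoid-responsive genes -0.07 and 0.29, and that of the erythroid markers 0.47 and -0.13. Of the 54 lists with at least 5 tested genes 16 changed the sign of their median in this way. Nppa, the atrial natriuretic peptide, was at 217.59, 215.59 and 210.68 FPKM in Sham+B12 and at 311.79, 529.89 and 3156.53 FPKM in Sham. Its Sham+B12 values were nearly equal and lay below all Sham values, with a log2 difference of -1.90 (SE 0.72) and of -0.92 without Sham 3. Nppb (-0.68, and 0.12 without Sham 3), Myh7, the fetal myosin (-1.67 and -0.61), Timp1 (-1.45 and -0.11) and Lcn2 (-1.36 and 0.44) overlapped between the groups. Ccl2, a monocyte chemokine, was at 0.83, 1.27 and 1.42 FPKM in Sham+B12 and at 1.53, 2.88 and 30.78 FPKM in Sham. Cd52, a lymphocyte and myeloid surface protein, was at 14.27, 14.31 and 12.76 FPKM in Sham+B12 and at 16.40, 57.49 and 22.66 FPKM in Sham, with Sham 2 the highest. Dbp, a clock output gene, had 88.7 ± 11.3 FPKM in Sham+B12 and 87.7 ± 48.5 FPKM in Sham (SD, n = 3 each). Myh6, the adult myosin (0.08), and Inmt, a methyltransferase of fibroblasts and lung (-0.12), overlapped.

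The heat shock protein Hsph1 also varied mostly within Sham. It was at 17.02, 26.12 and 23.68 FPKM in Sham+B12 and at 18.91, 10.52 and 5.61 FPKM in Sham, so that Sham 1 lay inside the Sham+B12 range. The difference was 1.00 (SE 0.32) and 0.60 without Sham 3. Of 28 heat shock genes it was the 1 with an unadjusted p under 0.05 (1.69% of all genes), and their median was 0.04. Ribosomal protein genes had 70 of 74 negative differences (median -0.11), but 53 of 74 were positive without Sham 2 (36.2% of all genes) and 24 of 74 with median-ratio scaling (48.7%). Interferon-stimulated genes had 16 of 28 negative differences with all libraries, 9 of 28 with median-ratio scaling and 26 of 28 without Sham 3, with medians of -0.04 and -0.27 and 0 called in either fit.

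Without Sham 3 again 0 genes were called by limma, and 172 (1.32%) had an unadjusted p under 0.05, 39 (0.3%) higher and 133 (1.02%) lower. The genes with the smallest p in that fit that have not yet been named mostly differed in a single remaining Sham library or had Sham 3 on the Sham+B12 side. Pbld2 was at 0.64, 1.17 and 0.36 FPKM in Sham+B12 and at 1.79, 19.09 and 1.07 FPKM in Sham, and Rexo5, an RNA exonuclease, at 0.21, 0.31 and 0.29 FPKM in Sham+B12 and 1.56, 4.91 and 0.31 FPKM in Sham. Gstp2, a glutathione transferase with a near-identical paralog, was at 9.08, 1.02 and 4.51 FPKM in Sham+B12 and at 0.00, 0.19 and 6.46 FPKM in Sham. Zfp423, a zinc finger regulator of adipocyte precursors, was at 0.90, 1.04 and 0.98 FPKM in Sham+B12 and at 2.75, 1.82 and 0.61 FPKM in Sham, and Rtl5 had 0.853 ± 0.344 FPKM in Sham+B12 and 1.85 ± 1.11 FPKM in Sham (SD, n = 3 each).

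**Figure D5:**
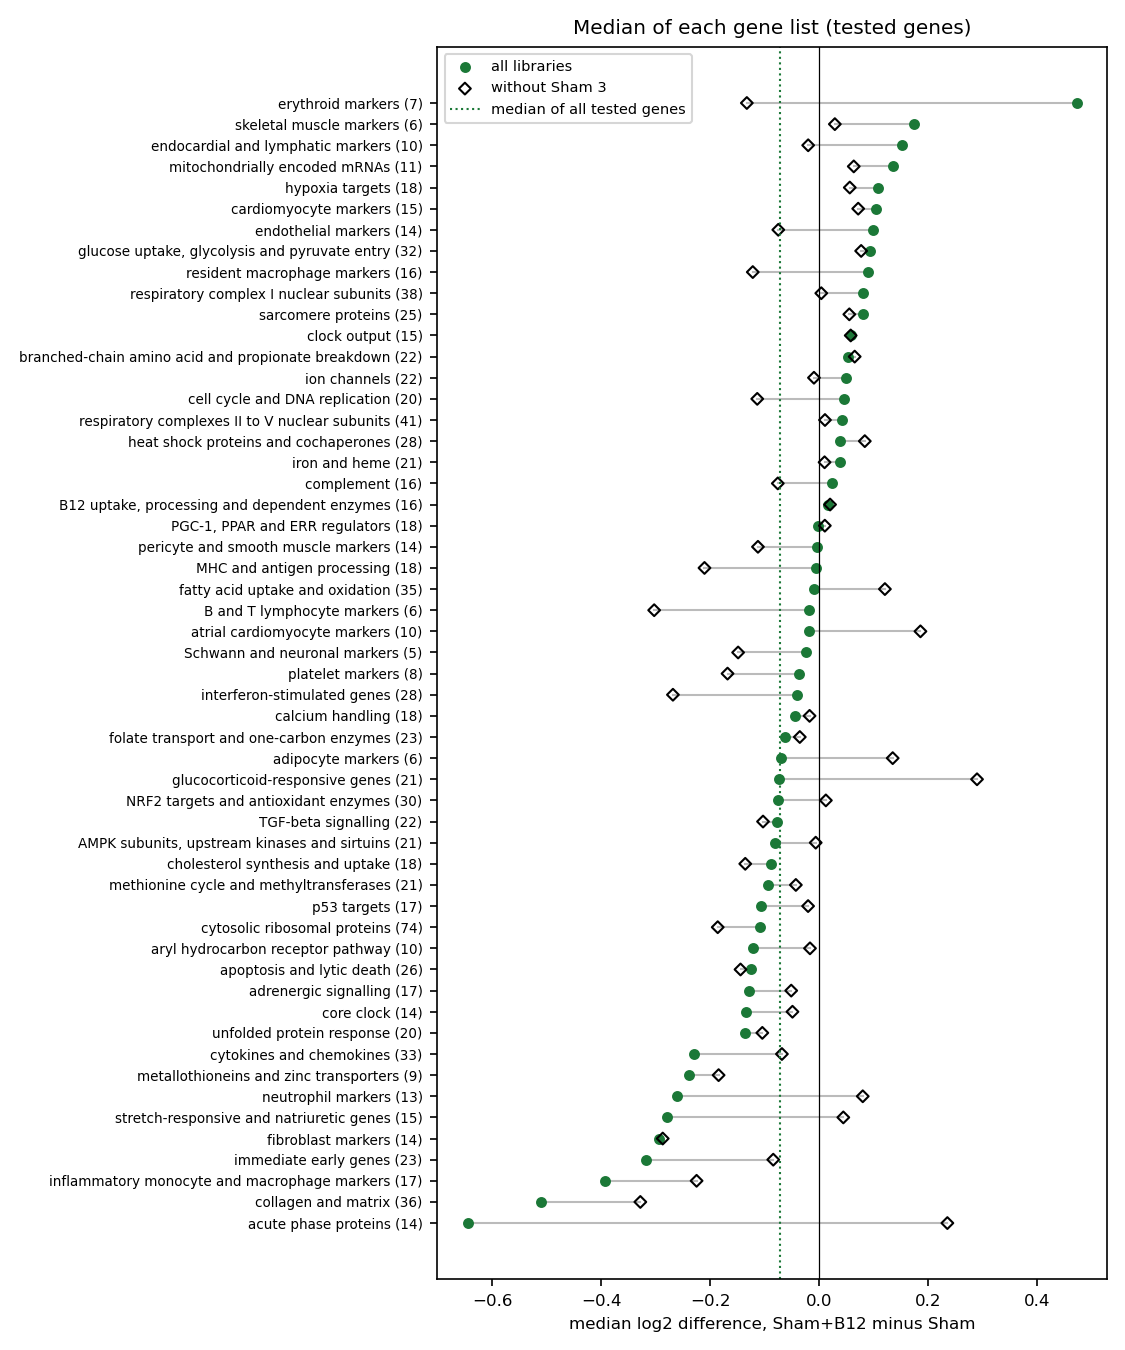
Median log2 difference between Sham+B12 and Sham hearts (x axis) for the 54 gene lists with at least 5 tested genes (rows, number of tested genes in brackets); green points are from all libraries, open diamonds without Sham 3, and the dotted line is the median of all tested genes at -0.07. The collagen and matrix list keeps a negative median (-0.51 and -0.33), and the acute phase list has the lowest value of all, -0.65, with all libraries and 0.23 without Sham 3.

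Whether B12 acted differently in sham-operated and injured hearts was tested as the interaction, the B12 difference in I/R hearts minus that in sham hearts. No gene was called (0 of 13001, 0.0%, smallest adjusted p 0.387), and 1595 genes (12.3%) had an unadjusted p under 0.05. Cyp1a1 was at 0.12, 0.17 and 1.51 FPKM in I/R+B12 and at 1.22, 0.70 and 1.24 FPKM in I/R, so the values overlapped there and none reached the lowest of Sham+B12. Its difference was -0.45 in injured hearts, against 2.22 in sham hearts, an interaction of -2.68 (SE 0.52, limma adjusted p 0.387). These values carry libraries that stood apart from their labels. Sham 3 and I/R 3 did, and I/R 3 had 3.04 FPKM of Lcn2 against 278.64 and 447.19 FPKM in I/R 1 and 2. Without both, 2 genes were called for the interaction. The count of 0 also rested on a single library, I/R+B12 1, which stood closer to the I/R libraries than to its own group. Its r was 0.979 and 0.978 with I/R 1 and 2, and 0.936 and 0.946 with I/R+B12 2 and 3. Without this library 1830 genes were called, and with library weights, whose estimation stopped short of its convergence tolerance, 1838. In those fits the limma adjusted p of the interaction was 0.019 and 0.0371 for Cyp1a1 (-2.47 and -1.68). Over the 24 alternatives that hold I/R libraries the adjusted p ran from 0.019 to 0.702 for Cyp1a1, and no other alternative called it. Its interaction stayed negative throughout, at -4.22 to -1.68.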

How the data were processed

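RNA from heart tissue was sequenced as paired-end, poly(A)-selected libraries, per the labels' protocols. The authors deposited 1 table of FPKM for 55487 genes, with 3 libraries in each of 4 groups. HISAT2, StringTie and mm10 are named in the submitters' processing notes, with versions and annotation not given in the sources used here. FPKM are scaled to each library's total, so a few abundant transcripts can shift all others. The table holds no counts. Depth was estimated from the spacing of low FPKM values in single-transcript genes of 500 to 2000 nt, with an effective length 270 nt shorter, and 83.2% to 89.4% of values were whole within 0.15 fragments.

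The scale of analysis was log2(FPKM + 1). Genes with at least 1 FPKM in 3 or more of the 12 libraries were tested in R 4.3.3 using limma 3.58.1 (trended variance, 8 residual degrees of freedom), two-sided and adjusted by Benjamini-Hochberg. The fit was tested on simulated data with the same spread for every gene and no library that stood apart. The real libraries differ in both, so that test does not bear on the count of genes called here. Of the table's IDs 55141 were found in GENCODE M21, and symbols shared by several genes stand for the most abundant. Gene lists (39 of pathways, 19 of cell markers), members and tests were chosen with earlier results of these data known. Named genes are, leaving out predicted ones, the 12 higher and 12 lower with the smallest p and the 6 and 6 with the largest difference among genes without overlap, the 6 and 6 with the smallest p without Sham 3, leading members of lists (3 each) and a fixed set around B12 use, energy sensing and cardiac stress; others were named after their values were seen. Some genes of these sets are not reported here. Alternatives changed the pseudocount, filter, scaling, libraries, variance model and library weights. Figures used matplotlib 3.10.9.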

Additional observations from a re-analysis of the deposited data

Results flagged for a closer look

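Some named genes had every Sham+B12 library on one side of every Sham library and every I/R+B12 library on the opposite side of every I/R library. They were picked for this pattern, so their interaction values are no separate support for it. How many of all tested genes have the pattern was not counted. The interaction, which tests the difference between the 2 B12 effects, was -3.07 on the log2 scale for Mup7, -1.41 for Cd209f, -1.38 for Myot, -1.08 for Pfkfb2 and -0.84 for Amy1, which were higher with B12 in sham hearts and lower in I/R hearts. It was 1.18 for Col4a1 and 1.22 for Atf4, which were lower with B12 in sham hearts and higher in I/R hearts. None was called by limma, with Benjamini-Hochberg adjusted p of 0.387 for Cd209f, Myot, Pfkfb2, Amy1, Col4a1 and Atf4 and 0.401 for Mup7. Without the library I/R+B12 1, a fit that called 1830 of 13001 genes, the adjusted p was 0.00652 to 0.0384 for the first 6 and 0.165 for Mup7. With library weights, which called 1838 genes, it was 0.0171 to 0.0372 and 0.374. The highest Mup7 values were 7.68 FPKM in Sham+B12 1 and 14.3 FPKM in I/R 3, the libraries with the most Alb. In the other alternatives none of them was called, with adjusted p up to 0.702.

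Transcripts of liver that were too low to test were listed in Sham+B12 1 above the other sham libraries, at 7.38 FPKM for Alb, 4.12 for Apoa1, 2.06 for Serpina1c and 1.65 for Apoc3. In Sham the highest value of any of these was 0.39 FPKM. The library I/R 3 also had them, with 12.6 FPKM of Alb and 5.96 of Apoa1.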

How the results depend on the processing

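Of the 85 named genes tested for dependence on the settings, 74 kept the sign of their difference in all 26 alternatives and 0 were called between Sham+B12 and Sham in any. The count of called genes stayed at 0 except for 3 with no filter (Cox5b-ps, Gm4654 and Gm48079), 1 in the sham libraries alone without Sham 3 (Gm15526) and 0 to 1 with single libraries left out (Gm17711 without Sham 1). Genes at an unadjusted p under 0.05 numbered 720 with no filter, 115 at a filter of 5 FPKM, 558 in the sham libraries alone, 631 there without Sham 3, 805 with library weights and 148 to 403 with single libraries left out. Genes without overlap, higher and lower, numbered 434 and 1445 with no filter, 111 and 808 at the FPKM 5 filter, 511 and 526 after median-ratio scaling, 478 and 518 after quantile normalization, 460 and 2179 without Sham 3 and I/R 3, and 1085 and 1164 with median-ratio scaling without Sham 3. With single libraries left out they ran from 200 to 854 and from 1168 to 2558. A count without overlap has fewer libraries to meet when 1 is left out. Interaction calls numbered 1 with no filter, 1838 with library weights, 2 without Sham 3 and I/R 3, 1 with median-ratio scaling without Sham 3, and 0 to 1830 with single libraries left out, the highest without I/R+B12 1. The labels do not say whether the replicate numbers are a pairing. Same-number libraries of Sham+B12 and Sham had correlations of -0.018, 0.2 and 0.045 after removing group means. Those of other-number libraries ran from -0.165 to 0.129, and so few values cannot exclude a pairing. With the replicate block 214 genes had an unadjusted limma p under 0.05 and 0 were called. Small differences turned round. In the sham libraries alone without Sham 3, as without Sham 3 and I/R 3, Nppb was at 0.117, Lcn2 at 0.441, Dbp at -0.38, Cyp1b1 at 0.15 and Shmt1 at 0.137. With median-ratio scaling without Sham 3 they were at 0.2, 0.511, -0.298, 0.212 and 0.205, and Nqo1 at 0.0198. Library weights gave -0.0278 for Dbp, 0.0779 for Cyp1b1, 0.0464 for Shmt1 and 0.0213 for Inmt, quantile normalization -0.0313 for Myh6 and 0.0722 for Shmt1, and median-ratio scaling 0.045 for Shmt1. With single libraries left out the range was -1.21 to 0.117 for Nppb, -0.0187 to 0.219 for Myh6, -2.39 to 0.441 for Lcn2, -0.38 to 0.567 for Dbp, -0.552 to 0.15 for Cyp1b1, -0.0514 to 0.268 for Lmbrd1, -0.231 to 0.137 for Shmt1, -0.0325 to 0.112 for Prkaa1, -0.00215 to 0.155 for Prkaa2 and -0.329 to 0.0673 for Inmt. The cause was not tested. The fits that combine the sham libraries alone, or median-ratio scaling, with leaving out Sham 3 were chosen after seeing the data. With 3 libraries a group and no counts, differences under about the median half-width of 0.44 could not be resolved for a typical gene. That half-width holds for 1 gene without adjustment. A call after adjustment over all tested genes needed more, and even Cyp1a1, at 2.22, was not called.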
